A study of Mus musculus with 35 samples.

Results

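The response of the heart to TAC without a knockout of an insulin receptor substrate was described from 11 of the 35 libraries of the study. TAC (transaortic constriction) is a suture around the aorta that raises the pressure against which the left ventricle pumps, and sham mice have the operation without the suture. By their labels, 5 libraries came from WT TAC hearts and 6 from WT sham hearts, and 13695 of 27012 genes had enough reads to be tested. The mice were of mixed C57Bl/6/FVB strain, 6 weeks old at surgery, and messenger RNA was taken from the apex of the heart 3 days later. WT mice carried the IRS2-flox allele without Cre, so the controls too carry a floxed allele, and no group had Cre alone. The other groups, used below only for comparison, were IRS1KO (alphaMHC-Cre X IRS1-flox) and IRS2KO (alphaMHC-Cre X IRS2-flox), each with 6 sham and 6 TAC libraries; alphaMHC-Cre acts in cardiomyocytes. No label states that each library came from a separate animal, so the spread behind each p-value is one between libraries and may be technical.

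Pressure overload makes cardiomyocytes thicken, which calls for new protein, RNA, membrane and cytoskeleton. Fibroblasts lay down matrix and monocytes enter the wall in the same days. Natriuretic peptides, collagens and oxidative metabolism are the readouts for which this model is best known. The account here is of other gene families: those that handle retinoids, build filaments and microtubules, make and secrete protein, feed nucleotide and amino acid synthesis, run the mitochondrion apart from respiration, carry signals between cells, and act in clotting and innate immunity.

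Markers of the response were checked first. Nppa, which encodes atrial natriuretic peptide, stood at 10102, 6235, 6184, 6913 and 12825 normalised counts in TAC replicates 1, 2, 3, 5 and 6, against 384 to 779 (median 593) in the sham libraries. Tnc, the matrix glycoprotein tenascin C, stood at 3161, 1093, 5798, 3461 and 2564 against 7.94 to 26.2 (median 16.02). Spp1, the secreted phosphoprotein osteopontin, stood at 4915, 67.2, 12025, 3276 and 1504 against 1.10 to 4.85 (median 2.73). Every TAC library lay above every sham library for all 3 genes, and TAC replicate 2 was the lowest of its group for Tnc and Spp1.

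The WT libraries held 12126642 to 14461410 reads assigned to genes and 18907 to 20605 detected genes. Of the genes tested, 3877 (28.3%) were higher after TAC and 3638 (26.6%) lower at an adjusted p under 0.05 (limma), with a median log2 fold change of -0.0127. Every TAC library lay above every sham library for 17.2% of the genes, and below for 14.3%. Each count of a family below is to be read against these shares. TAC replicate 2 moved least: its median difference from the sham mean was 0.359 (log2) over the genes that rose, against 0.691 to 0.861 in the other TAC libraries. Without it, 4066 genes were higher and 3870 lower. The mitochondrial genome took 29.2% to 30.6% of the reads in sham and 21.8% to 27.0% in TAC libraries. Scaling each library to the same total moved the median of all genes to 0.243 and turned the split of calls to 6221 higher and 1583 lower. Falls smaller than 0.255 on the log2 scale therefore rest on the deposited scaling, and counts that this other scaling moved by over 1.5 times are given with each family described. The tissue was bulk: fewer cells of a type and less RNA per cell cannot be told apart. A gene near 0 in sham hearts could pass the filter through its TAC values alone, so counts cover measured members only. In some families many members went unmeasured: 12 of 23 FGF, 18 of 31 BMP and 27 of 51 Wnt genes were measured. Of 45 family counts of 1 or 2 members, 16 moved by over 1.5 times when some single library was left out, so such small counts are unsteady.

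**Figure D1:**
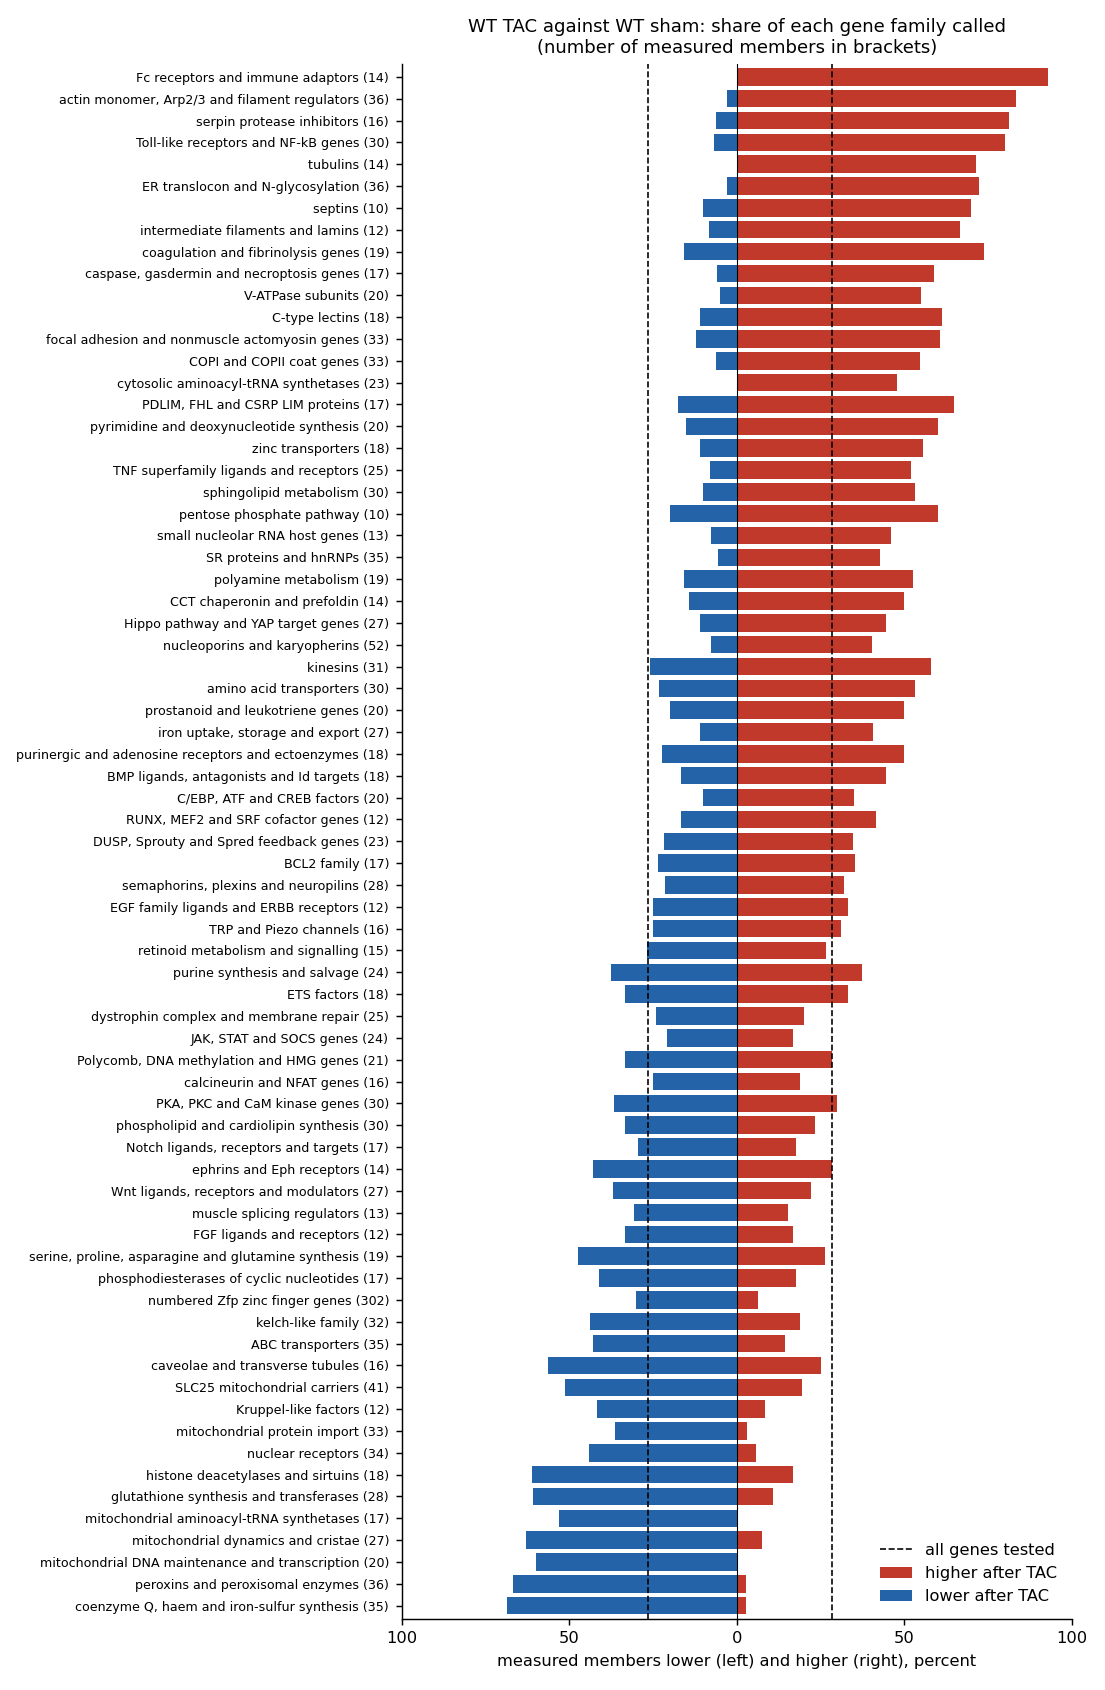
Share of measured members (percent, horizontal axis) higher (right) and lower (left) after TAC in gene families with at least 10 measured members, ordered by the difference. The dashed lines are the shares over all genes tested, 28.3% higher and 26.6% lower; actin regulators, Fc receptors and immune adaptors and Toll-like receptor genes lie far to the right and peroxisomal, coenzyme Q and mitochondrial DNA genes far to the left.

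Retinoic acid is made from vitamin A by stepwise oxidation, acts through nuclear receptors and is cleared by cytochromes of the CYP26 group; the adult epicardium and fibroblasts are known for making it after injury. Aldh1a2 (chromosome 9, 71215789 to 71296243 in GRCm38), the enzyme of the last step, stood at 1421, 138, 721, 1022 and 707 normalised counts in TAC replicates 1, 2, 3, 5 and 6, against 21.9 to 34.0 (median 30.7) in sham libraries. All 5 TAC libraries lay above all sham libraries, with replicate 2 the nearest to them (log2 fold change 4.43, SE 0.39, adjusted p = 1.7e-10). Cyp26b1, which breaks retinoic acid down, went the other way, from 77.5 to 177 (median 86.3) in sham to 18.0, 72.9, 12.6, 31.7 and 7.02. Its fall was 3.52-fold, and 5.77-fold without TAC replicate 2 (log2 fold change -2.14, SE 0.42, adjusted p = 1.0e-04). Another dehydrogenase gene, Aldh1a3, rose from 14.3 ± 2.20 to 72.7 ± 25.8 (SD, n = 6 and 5, as for all means below), while Retsat, which makes dihydroretinol, fell 2.04-fold. Of 15 measured members of the retinoid list (23 in the table), 4 were higher and 4 lower. The family thus moved in both directions, and its median (-0.21) turned positive with the same total per library. Among the receptors, Rara rose 1.499-fold and Rxrg fell 2.16-fold. Of 4 measured mesothelial markers 1 rose and 0 fell; Wt1, a factor of the epicardium, stood at 49.6 ± 14.1 against 60.1 ± 11.7 (adjusted p = 0.312).

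**Figure D2:**
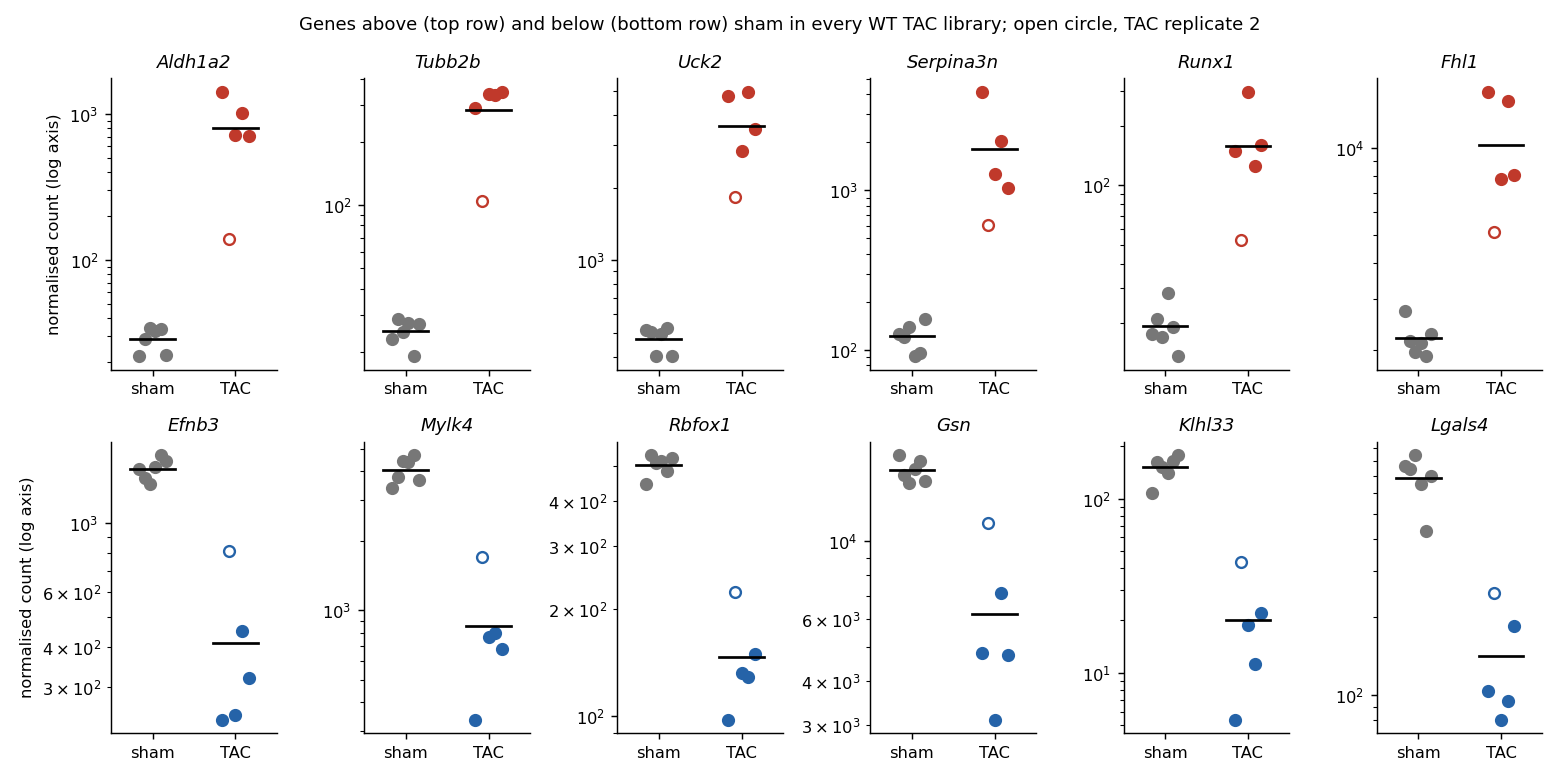
Normalised counts (log axis) of 12 genes in each WT library; grey points are the 6 sham libraries and coloured points the 5 TAC libraries, with TAC replicate 2 drawn as an open circle, and the bar is the group mean. Aldh1a2, Tubb2b, Uck2, Serpina3n, Runx1 and Fhl1 lie above, and Efnb3, Mylk4, Rbfox1, Gsn, Klhl33 and Lgals4 below, the sham libraries in every TAC library.

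Microtubules and actin filaments grow in an overloaded cardiomyocyte, and both also serve dividing and migrating cells. Tubulin genes, which encode the subunits of microtubules, rose in 10 of 14 measured cases and fell in 0 (median 1.61). The beta tubulin gene Tubb2b stood at 290.1, 105, 339, 335 and 347 in the TAC libraries against 19.0 to 28.7 (median 26.0) in sham, with replicate 2 the lowest of its group (log2 fold change 3.34, SE 0.39, adjusted p = 3.8e-08). Tubb6 rose 5.25-fold from 177 ± 32.5 to 929 ± 369 and Tubb2a 5.05-fold, and Tubb3, the form known from neurons, went from 3.06 ± 2.03 to 122 ± 58.7. Tubb2a and Tubb2b are near-identical, as are several alpha tubulin genes, so reads could be shared among them.

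Of 36 actin monomer, Arp2/3 and filament regulators, 30 rose and 1 fell (median 0.90). Tmsb10, a binder of actin monomers, rose 3.91-fold from 159 ± 9.09 to 621 ± 239, and Capg, which caps filament ends, 5.60-fold. The steepest rises belonged to genes known from white blood cells, Coro1a (8.38-fold) and Lcp1 (7.39-fold). Summed macrophage markers rose with them, from 4242 to 5461 normalised counts in sham to 10511 to 24383 after TAC; their part in these rises was not tested. Gsn (gelsolin, chromosome 2, 35256380 to 35307892) was the member that fell. It stood at 4816, 11261, 3110.2, 7155 and 4767 in the TAC libraries against 14694 to 17614 (median 15749.8) in sham, with no overlap (log2 fold change -1.49, SE 0.29, adjusted p = 8.0e-05). Gelsolin also marks resting fibroblasts. A count over general fibroblast markers, not over resting ones alone, is given further on.

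Focal adhesions couple actin to the matrix, and 20 of their 33 measured genes rose while 4 fell. Actn1, the nonmuscle actinin, rose 4.78-fold, the filamin gene Flnc 2.60-fold and the tropomyosin gene Tpm4 2.90-fold. Among those that fell were Lims2 (1.65-fold) and the nonmuscle myosin Myh14 (1.61-fold). LIM proteins of the Z disc and the nucleus followed with 11 of 17 higher and 3 lower (5 lower without TAC replicate 2). Fhl1, a LIM protein that binds titin, stood at 15678, 5098, 7812, 14549 and 8041 against 1897 to 2731 (median 2132) (log2 fold change 2.11, SE 0.20, adjusted p = 4.2e-10). Its relative Fhl2 stood at 16263 ± 4884 against 22010.0 ± 1436 and did not pass (adjusted p = 0.0774), but did without TAC replicate 2 (adjusted p = 0.0202) and in a fit of the WT libraries alone (adjusted p = 0.014). Of 12 measured intermediate filament and lamin genes (39 in the table), 8 rose and 1 fell. Vimentin (Vim) rose 3.77-fold and lamin B1 (Lmnb1) 4.18-fold. Keratin 18 (Krt18), known from epithelia, rose from 8.43 ± 4.31 to 117 ± 87.9.

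Of 31 kinesins, 18 were higher and 8 lower. Kif11 and Kif23, motors of the mitotic spindle and of cell division, went from 13.5 ± 2.46 to 126 ± 58.1 and from 9.41 ± 4.19 to 125 ± 53.8. The vesicle motor gene Kif1c fell 1.34-fold and Kif13a 1.44-fold. Septins, filament-forming GTPases, rose in 7 of 10 cases and fell in 1, led by Sept11 (2.22-fold), and Sept4 fell 1.58-fold. With the same total per library, counts of higher and lower members were 27 and 2 for the focal adhesion and nonmuscle actomyosin genes, 11 and 1 for the PDLIM, FHL and CSRP LIM proteins and 20 and 4 for the kinesins.

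The surface of the muscle cell changed less evenly. Of 25 genes of the dystrophin complex and membrane repair, 5 rose and 6 fell, both shares below the background. Myof (myoferlin, a membrane repair protein) rose 6.15-fold and Dysf (dysferlin) 1.48-fold. The sarcoglycan gene Sgca fell 1.71-fold, and the repair gene Trim72 did not pass, at 3059 ± 456 against 2734 ± 206 (adjusted p = 0.257, and 1.0e-04 with the same total per library). Caveola and transverse tubule genes fell in 9 of 16 cases and rose in 4. The titin cap gene Tcap fell 2.09-fold, Cavin2 1.58-fold and the junctophilin gene Jph1 1.53-fold. Bin1, which bends transverse tubule membrane, rose 2.22-fold and muscle caveolin Cav3 1.49-fold. Kelch-like proteins, many of them adaptors of ubiquitin ligases, fell in 14 of 32 cases and rose in 6; the count of falls was 8, 8 and 9 without TAC replicates 1, 3 and 5. Klhl33 fell furthest, to 5.39, 43.2, 18.9, 11.2 and 21.9 in the TAC libraries from 108 to 178 (median 158) in sham (log2 fold change -3.12, SE 0.47, adjusted p = 2.9e-06). Klhl40, a member known from the thin filament of muscle, rose 1.47-fold. Of 16 TRP and Piezo channel genes 5 rose and 4 fell. The stretch-gated channel gene Piezo2 rose from 7.99 ± 2.52 to 71.7 ± 34.9, and the cation channel Trpm4 fell 1.87-fold. When every library was given the same total, counts of higher and lower members were 12 and 2 for the dystrophin complex and membrane repair, 7 and 3 for the caveolae and transverse tubules and 11 and 5 for the kelch-like family.

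Growth needs amino acids charged onto transfer RNA. Cytosolic and mitochondrial synthetases do the same chemistry for different ribosomes, and the lists of their genes moved apart. Gars (log2 fold change 0.40) and Kars (-0.09), whose enzymes serve both compartments, were counted in the cytosolic list only. Of 23 cytosolic synthetase and scaffold genes, 11 rose and 0 fell (median 0.17); of 17 mitochondrial ones, 0 rose and 9 fell (median -0.27). The rises were small, 1.46-fold for Rars and 1.36-fold for Hars, as were the falls, 1.41-fold for Fars2 and 1.41-fold for Cars2. With the same total per library, counts of higher and lower members were 17 and 0 for the cytosolic aminoacyl-tRNA synthetases and 1 and 4 for the mitochondrial aminoacyl-tRNA synthetases, so the calls turn on the scaling. The gap between the medians was 0.439 as deposited. That scaling shifts all genes by about the same step, so it could not change this gap. With quantile normalisation, which could, the gap was 0.489.

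**Figure D3:**
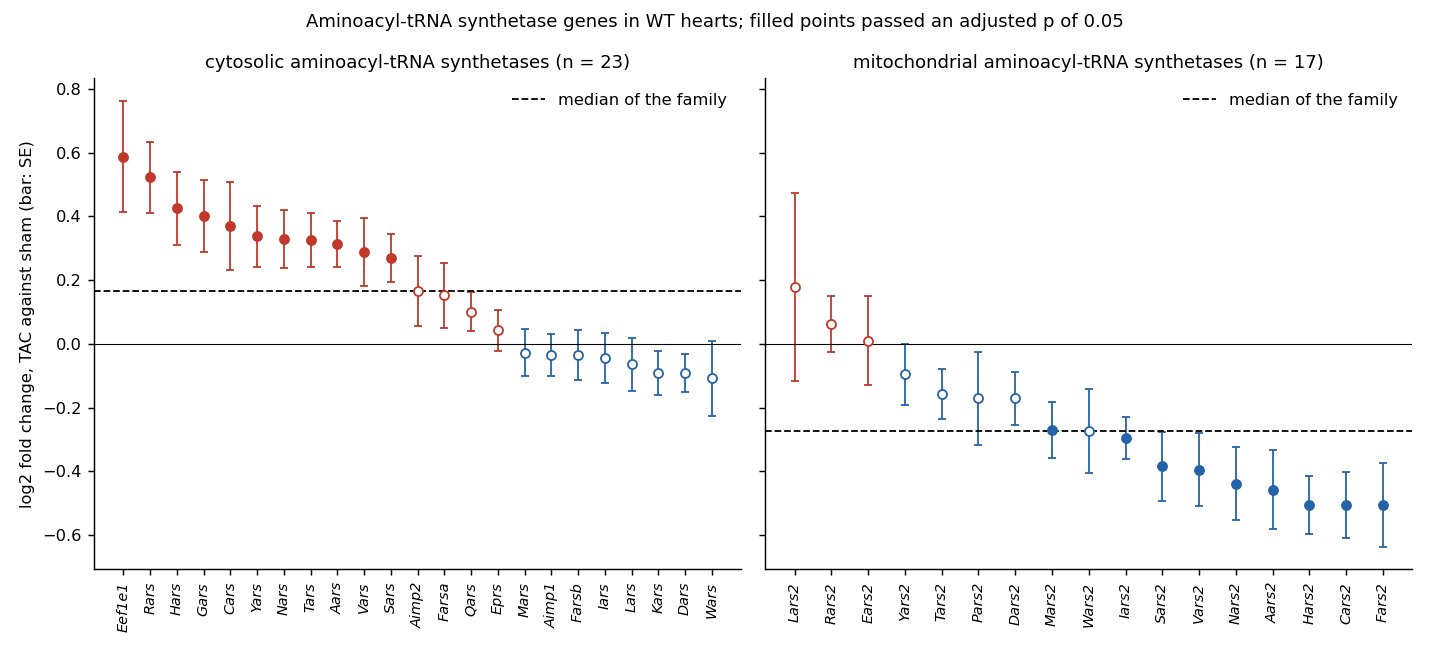
Log2 fold change of TAC against sham (vertical axis, bars are SE) for each cytosolic (left, with the scaffold genes Aimp1, Aimp2 and Eef1e1) and mitochondrial (right) aminoacyl-tRNA synthetase gene, ordered by size within each group; filled points passed the threshold. The medians drawn as lines are 0.17 for the cytosolic and -0.27 for the mitochondrial genes.

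Amino acid synthesis genes went both ways. Among those that rose were 2 of the enzymes that make serine from glucose intermediates, Phgdh from 12.7 ± 4.91 to 64.1 ± 20.1 and Psat1 from 25.1 ± 4.78 to 134 ± 58.6, and Pycr1 of proline synthesis and Asns, which makes asparagine. Pycr1 stood at 72.7, 39.4, 88.3, 51.1 and 78.1 in the TAC libraries against 11.2 to 23.1 (median 13.4) in sham, without overlap (log2 fold change 2.05, SE 0.30, adjusted p = 1.3e-06). Among the members that fell were proline dehydrogenase (Prodh, 2.05-fold), the alanine transaminases Gpt and Gpt2 (2.16-fold and 2.40-fold) and Got1 (1.58-fold). The list as a whole counted 5 higher and 9 lower of 19. Of 30 amino acid transporter genes 16 rose and 7 fell. The large neutral amino acid exchanger Slc7a5 rose 3.15-fold, the alanine and serine carrier Slc1a4 3.67-fold and the glutamate carrier Slc1a3 6.46-fold. Slc36a2, a proline and glycine carrier, fell from 261 ± 22.8 to 91.7 ± 48.7, and the glutamine carrier Slc38a3 fell 1.69-fold.

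Genes of these amino acid lists are known targets of ATF4, which binds composite C/EBP-ATF elements, and Atf4 itself rose 1.45-fold (adjusted p = 0.00726, and 0.054 without TAC replicate 1). The element was searched as TTGCATCA on both strands in RefSeq promoters of GRCm38.p6, taken as 250 bases before to 50 after each start. It stood in 0.583% of the 13042 promoters of tested genes, and in 4 of 16 promoters of cytosolic synthetases, 3 of 32 of amino acid transporters and 2 of 15 of the synthesis list. Matches in 7 genes of these 3 lists are shown, 1 promoter per gene, with the element in capitals and written along the gene's strand, because its share in each list lies above that of all tested promoters; the lists were picked after these shares were seen.
Yars, chr4:129189895-129189924, plus strand: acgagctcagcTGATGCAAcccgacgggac
Tars, chr15:11399655-11399684, minus strand: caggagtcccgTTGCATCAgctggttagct
Iars, chr13:49682126-49682155, plus strand: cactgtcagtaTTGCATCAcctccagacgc
Slc1a4, chr11:20332699-20332728, minus strand: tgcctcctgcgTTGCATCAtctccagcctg
Slc7a7, chr14:54417927-54417956, minus strand: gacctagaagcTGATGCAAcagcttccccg
Pycr1, chr11:120643833-120643862, minus strand: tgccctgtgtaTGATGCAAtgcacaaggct
Got1, chr19:43524689-43524718, minus strand: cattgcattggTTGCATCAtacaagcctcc
In Yars, Slc7a7 and Pycr1 the element lies on the opposite strand and reads TGATGCAA. Of these 7 genes, Yars, Tars, Slc1a4, Slc7a7 and Pycr1 rose (log2 fold changes 0.34, 0.33, 1.79, 1.00 and 2.05), Iars did not pass (-0.04, adjusted p = 0.646) and Got1 fell (-0.69). Atf4, Yars, Tars, Iars and Slc7a7 were taken up for their promoters after values had been seen. A match of letters is not a bound site. The element stood in 1.14% of 1228 promoters of genes that rose by at least 2-fold and in 0.5% of 400 promoters of genes that fell by as much. It was also found in 25 (0.438%) of 5704 promoters of genes that did not pass. No test was run on these shares.

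Secretory genes rose widely. Of 36 genes of the ER translocon and N-glycosylation, 26 rose and 1 fell (median 0.38). Spcs3, a signal peptidase subunit, stood at 2224, 909.9, 1716, 2757 and 1832 against 538 to 629 (median 589) in sham (log2 fold change 1.59, SE 0.26, adjusted p = 8.3e-06). Sec61a1, the translocation channel, rose 2.19-fold and Ostc, an oligosaccharyltransferase subunit, 2.17-fold. COPI and COPII coat genes rose in 18 of 33 cases and fell in 2, led by the KDEL receptors Kdelr3 (3.64-fold) and Kdelr2 (2.26-fold); Sec31b fell 2.23-fold. V-ATPase genes, which acidify lysosomes and secretory vesicles, rose in 11 of 20 cases and fell in 1. The rise of Atp6v1a was 1.97-fold, and Atp6v0d2, a subunit known from osteoclasts and macrophages, stood at 66.5, 8.64, 199, 51.1 and 27.2 against at most 4.38 in sham.

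Nuclear transport and RNA processing moved by smaller amounts. Of 52 nucleoporin and karyopherin genes 21 rose and 4 fell. Ranbp1 and Rangap1 of the Ran cycle rose 1.86-fold and 1.70-fold, and the importin gene Ipo13 fell 1.67-fold. SR proteins and hnRNPs rose in 15 of 35 cases and fell in 2; the polypyrimidine tract protein Ptbp1, which represses muscle and neuronal exons, rose 2.03-fold (log2 fold change 0.98, SE 0.17, adjusted p = 2.3e-05). Of 13 splicing regulators of adult muscle 4 fell and 2 rose, and the share lower was near that of all genes. Rbfox1 stood at 97.9, 223, 132, 129 and 149 in the TAC libraries against 447 to 537 (median 512) in sham, without overlap (log2 fold change -1.83, SE 0.26, adjusted p = 1.3e-06). Rbm20, which splices titin, fell 1.54-fold and Rbm38 1.57-fold. The chaperonin CCT folds actin and tubulin; with prefoldin it counted 7 higher and 2 lower of 14, with Cct8 up 1.42-fold and Cct3 1.40-fold. Host genes of small nucleolar RNAs rose in 6 of 13 cases and fell in 1; Gas5 rose 1.58-fold and Snhg18 1.95-fold, while Snhg14 fell 1.89-fold. When every library was given the same total, counts of higher and lower members were 34 and 0 for the ER translocon and N-glycosylation, 29 and 1 for the COPI and COPII coat genes, 18 and 0 for the V-ATPase subunits, 40 and 1 for the nucleoporins and karyopherins, 28 and 0 for the SR proteins and hnRNPs, 6 and 3 for the muscle splicing regulators and 10 and 0 for the CCT chaperonin and prefoldin.

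Pyrimidine and deoxynucleotide genes held more rises than falls, and purine genes were evenly split. Uck2 (chromosome 1, 167222883 to 167285320), which salvages uridine and cytidine, stood at 4794, 1821, 2843, 4981 and 3499 in the TAC libraries against 401 to 524 (median 501) in sham (log2 fold change 2.83, SE 0.27, adjusted p = 8.6e-10). All 5 TAC libraries lay above all sham libraries, with replicate 2 the lowest of them. The ribonucleotide reductase subunit Rrm2 rose 6.22-fold and thymidine kinase (Tk1) 3.30-fold. Dhodh, the mitochondrial step of new pyrimidine synthesis, fell 1.64-fold. In all, 12 pyrimidine and deoxynucleotide genes of 20 rose and 3 fell. Purine genes were evenly split, 9 higher and 9 lower of 24: the adenine salvage gene Aprt rose 2.18-fold, and Ppat, the committing enzyme of new synthesis, fell 1.72-fold. The purine breakdown gene Xdh fell 1.66-fold. The pentose phosphate pathway supplies ribose and NADPH; 6 of its 10 genes rose and 2 fell, with G6pdx up 2.72-fold, Tkt 2.22-fold and Rpia down 1.43-fold. Polyamine genes rose in 10 of 19 cases and fell in 3. Ornithine decarboxylase (Odc1) and its guard Azin1 rose 1.80-fold and 1.96-fold, and spermidine synthase (Srm) 1.83-fold. With the same total per library, counts of higher and lower members were 10 and 5 for the purine synthesis and salvage, 7 and 1 for the pentose phosphate pathway, 11 and 0 for the polyamine metabolism, 18 and 2 for the amino acid transporters and 10 and 7 for the serine, proline, asparagine and glutamine synthesis.

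As deposited, glutathione and ABC transporter genes held more falls than rises, and metal transport genes more rises than falls. Of 28 genes of glutathione synthesis and transfer 17 fell and 3 rose (median -0.48), or 5 rose without TAC replicate 2. The transferases Gsta3, Gstk1 and Gstt1 fell 2.96-fold, 2.36-fold and 2.28-fold, whereas Gclm of glutathione synthesis rose 1.39-fold. Genes of 1 transferase class, above all Gstm, are close copies, and their reads could be shared. Water channel genes fell in 3 of 6 measured cases and rose in 0. Aqp1, known from capillary endothelium, stood at 3582, 6424, 1488, 3625 and 2381 against 5437 to 8851 (median 7139), and only TAC replicate 2 lay within the sham range (log2 fold change -1.16, SE 0.29, adjusted p = 0.00118); Aqp7 (a glycerol channel) fell 1.96-fold. ABC transporters fell in 15 of 35 cases and rose in 5: Abcc9, the sulphonylurea receptor of cardiac potassium channels, fell 2.31-fold, Abcb1a 1.85-fold, and Abcc3 rose 4.42-fold. Carbonic anhydrases went both ways, 4 higher and 4 lower of 9, with Car4 and Car14 2.12-fold and 1.93-fold lower. Iron genes rose in 11 of 27 cases and fell in 3. Ferritin light chain (Ftl1) rose 2.83-fold, the phagosome metal carrier Slc11a1 5.10-fold, and lipocalin 2 (Lcn2), which binds bacterial iron carriers, 8.84-fold (5.2-fold without TAC replicate 1). Zinc transporters rose in 10 of 18 cases and fell in 2, with Slc39a13 up 2.44-fold. When every library was given the same total, counts of higher and lower members were 5 and 10 for the glutathione synthesis and transferases, 11 and 9 for the ABC transporters, 16 and 0 for the iron uptake, storage and export and 12 and 0 for the zinc transporters.

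Mitochondrial genes other than those of respiration also fell, to different degrees. Coenzyme Q, haem and iron-sulfur synthesis fell in 24 of 35 cases and rose in 1 (median -0.39), with Coq10a 1.83-fold and Coq9 1.75-fold lower. Alad, a haem enzyme of the cytosol in the same list, was 1.85-fold lower. Genes of mitochondrial DNA upkeep fell in 12 of 20 cases and rose in 0: the helicase gene Twnk fell 1.69-fold and the RNA-binding Lrpprc 1.58-fold. Fusion, fission and crista genes fell in 17 of 27 cases and rose in 2; Mfn2 (mitofusin 2) fell 1.43-fold and the crista protein Chchd3 1.41-fold. Carriers of the SLC25 family fell in 21 of 41 and rose in 8. The coenzyme A carrier Slc25a42 fell 2.41-fold, while the uncoupling protein Ucp2 rose 1.86-fold and Slc25a24 2.70-fold. Protein import was the least touched, 12 of 33 lower and 1 higher, with Timm21 down 1.47-fold. Peroxisomes share fatty acid oxidation with mitochondria; 24 of 36 peroxisomal genes fell and 1 rose (median -0.38). The bifunctional enzyme Ehhadh fell 2.30-fold, the phytanoyl hydroxylase Phyh 1.74-fold and the carnitine acetyltransferase Crat 1.72-fold. With the same total per library, counts of higher and lower members were 3 and 13 for the coenzyme Q, haem and iron-sulfur synthesis, 2 and 4 for the mitochondrial DNA maintenance and transcription, 5 and 8 for the mitochondrial dynamics and cristae, 11 and 3 for the mitochondrial protein import and 5 and 14 for the peroxins and peroxisomal enzymes. The medians of the import and SLC25 families then stood above 0 and that of fusion, fission and crista genes at 0, while those of the other 3 families stayed below it.

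Sphingolipid genes, which make and turn over ceramide and its signals, rose more often than they fell. Of 30 genes 16 rose and 3 fell: sphingosine kinase (Sphk1) rose 5.14-fold, the ceramide synthase Cers6 2.50-fold, the sphingomyelin synthase Sgms2 3.32-fold and the receptor S1pr2 2.44-fold. Smpd2 fell 1.60-fold. Phospholipid genes were divided, 7 higher and 10 lower of 30, with Agpat4 up 2.26-fold and Gpam down 1.85-fold. Prostanoid and leukotriene genes rose in 10 of 20 cases and fell in 4. Cyclooxygenase 2 (Ptgs2) rose from 8.90 ± 3.25 to 63.5 ± 33.2, phospholipase A2 (Pla2g4a) 4.30-fold and thromboxane synthase (Tbxas1) 3.46-fold; Ptgds of prostaglandin D synthesis fell 1.81-fold. When every library was given the same total, counts of higher and lower members were 22 and 1 for the sphingolipid metabolism and 12 and 8 for the phospholipid and cardiolipin synthesis.

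Ligands and receptors of growth-factor families were counted by family. In the EGF family, which signals through ERBB receptors, 4 of 12 genes were higher and 3 lower: Hbegf rose 3.50-fold, the receptor Egfr rose 2.12-fold, and Egf fell 2.40-fold. FGF genes fell in 4 of 12 cases and rose in 2, among the falls Fgf9 2.21-fold and the sodium channel partner Fgf13 1.69-fold, while the receptor Fgfr1 rose 1.65-fold. Of 7 PDGF genes 3 rose and 0 fell: Pdgfc rose 2.94-fold and Pdgfrl 3.76-fold; Pdgfrb, the receptor of pericytes, did not pass (log2 fold change 0.03, adjusted p = 0.7, and 0.0122 with the same total per library). Secreted binders of the BMP and activin family led a list with 8 of 18 higher and 3 lower (6 lower without TAC replicate 2): Fstl1 rose 5.72-fold and Fstl3 5.32-fold, while the ligand Bmp6 fell 1.503-fold. Wnt antagonists and receptors moved in both directions, 6 higher and 10 lower of 27; Sfrp1 rose 3.69-fold and Fzd2 2.78-fold, and Fzd4 fell 1.70-fold and Wnt5a 1.81-fold. Of 17 Notch genes 3 rose (1 without TAC replicate 3) and 5 fell, with the target Hey1 down 1.69-fold.

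Genes of guidance cues, known from axons and vessels, went both ways. Efnb3 (chromosome 11, 69554092 to 69560205), a membrane-bound ephrin, stood at 235, 810.1, 244, 452 and 320.5 in the TAC libraries against 1332 to 1644 (median 1494) in sham (log2 fold change -2.01, SE 0.55, adjusted p = 0.00272). The receptor Epha4 fell 2.37-fold, and of 14 ephrin and Eph genes 4 were higher and 6 lower. Semaphorins, plexins and neuropilins counted 9 higher and 6 lower of 28. Plxnb1, a receptor of semaphorins, fell 3.06-fold (log2 fold change -1.67, SE 0.20, adjusted p = 4.7e-08), Sema6a 1.69-fold, and Sema3f and Plxnc1 rose 2.10-fold and 2.35-fold.

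TNF superfamily genes rose in 13 of 25 measured cases (45 in the table) and fell in 2 (median 0.53). Among the 21 measured receptors 11 rose, a share like that of the whole list. Tnfrsf12a, the receptor of TWEAK, stood at 1882, 977, 954, 1779 and 1495 against 250.04 to 446 (median 359) (log2 fold change 1.97, SE 0.23, adjusted p = 3.0e-08), Tnfrsf1b rose 3.40-fold, and Tnfrsf11a (RANK) 3.54-fold. Tnfrsf19 fell 5.83-fold and the ligand Tnfsf10 1.63-fold.

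Inside the cell, single feedback genes of several pathways rose, but the activity of the pathways was not measured. Socs3, an inhibitor induced by STAT3, stood at 430.1, 80.6, 225, 366 and 178 against 24.2 to 35.04 (median 26.7) (log2 fold change 2.94, SE 0.37, adjusted p = 1.8e-07), and Stat3 rose 1.54-fold while Stat5b fell 1.54-fold. The JAK, STAT and SOCS list counted 4 higher and 5 lower of 24. Rcan1, a calcineurin inhibitor that NFAT induces, rose 3.54-fold from 773 ± 77.5 to 2733 ± 1193, although the calcineurin and NFAT list counted only 3 higher and 4 lower of 16. YAP targets and Hippo genes rose in 12 of 27 cases and fell in 3; Ccn2 rose 4.88-fold, Tgfb2 5.38-fold and Ccn1 2.32-fold. Among kinases of cyclic AMP, diacylglycerol and calcium 9 rose and 11 fell of 30. The myosin kinase gene Mylk4 (chromosome 13, 32700834 to 32783954) stood at 336, 1703, 763, 795 and 681 against 3372 to 4702 (median 4076) (log2 fold change -2.42, SE 0.47, adjusted p = 9.5e-05), and Camk2a fell 1.93-fold, while Prkcd rose 2.49-fold and Prkcb 2.87-fold. Phosphodiesterases fell in 7 of 17 cases and rose in 3, with Pde7a 1.92-fold lower, and Pde1a rose 2.25-fold. Receptors for ATP and adenosine and their enzymes rose in 9 of 18 cases and fell in 4; Nt5e, which makes adenosine, rose 1.76-fold, P2ry6 rose 3.74-fold and P2ry1 fell 2.21-fold. MAP kinase phosphatases and Sprouty genes counted 8 higher and 5 lower of 23 (5 higher without sham replicate 6 or TAC replicate 6), Dusp6 rising 1.67-fold. With the same total per library, counts of higher and lower members were 5 and 1 for the EGF family ligands and ERBB receptors, 6 and 0 for the PDGF ligands and receptors, 9 and 4 for the Wnt ligands, receptors and modulators, 7 and 2 for the Notch ligands, receptors and targets, 10 and 2 for the JAK, STAT and SOCS genes, 7 and 1 for the calcineurin and NFAT genes, 20 and 1 for the Hippo pathway and YAP target genes, 15 and 7 for the PKA, PKC and CaM kinase genes, 5 and 5 for the phosphodiesterases of cyclic nucleotides and 8 and 3 for the DUSP, Sprouty and Spred feedback genes.

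Transcription factor families split: as deposited, nuclear receptor, SOX, Kruppel-like and zinc finger genes held more falls than rises, and the RUNX and C/EBP lists more rises than falls. Runx1, a factor of blood and of dedifferentiating cardiomyocytes, stood at 149, 52.8, 298, 126 and 161 against 13.6 to 28.5 (median 18.3) (log2 fold change 2.79, SE 0.39, adjusted p = 8.7e-07), and Runx2, known from bone, rose from 12.3 ± 3.92 to 58.7 ± 22.7. Their list, with MEF2 and SRF cofactors, counted 5 higher and 2 lower of 12. Sox9, a chondrocyte and fibroblast factor, rose from 14.2 ± 4.00 to 92.2 ± 49.5; 4 of the 9 measured SOX genes fell and 1 rose, with 2 falls without TAC replicate 3 or 5. Creb3l1, a membrane-bound factor of collagen-secreting cells, rose 4.71-fold, Atf3 3.67-fold and Cebpa 2.78-fold, in a C/EBP, ATF and CREB list with 7 of 20 higher and 2 lower. Nuclear receptors fell in 15 of 34 cases and rose in 2. Nr3c2, the mineralocorticoid receptor, stood at 59.3, 154, 146, 103 and 122 against 220.1 to 359 (median 302) (log2 fold change -1.37, SE 0.27, adjusted p = 1.2e-04), thyroid receptor Thrb fell 1.66-fold, and the retinoic acid receptor Rara rose as given above. Histone deacetylases and sirtuins fell in 11 of 18 cases and rose in 3, Hdac11 and Hdac4 falling 2.37-fold and 1.88-fold and Hdac1 rising 1.46-fold. Kruppel-like factors fell in 5 of 12 cases and rose in 1; Klf9 fell 1.82-fold. Of 19 HOX genes in the table none had enough reads to be tested. Of 302 numbered Zfp zinc finger genes, most of them repressors of transposons or of unknown targets, 19 rose (11 to 12 without TAC replicate 1, 3 or 5) and 91 fell, with a median of -0.17 that turned positive with the same total per library. Polycomb, DNA methylation and HMG genes were higher in 6 and lower in 7 of 21 cases, and ETS factors in 6 and 6 of 18. Uhrf1, which acts with Dnmt1 in copying DNA methylation at replication, rose from 21.5 ± 5.21 to 129 ± 67.2, and Dnmt1 rose 1.61-fold. When every library was given the same total, counts of higher and lower members were 7 and 0 for the RUNX, MEF2 and SRF cofactor genes, 1 and 0 for the SOX factors, 10 and 0 for the C/EBP, ATF and CREB factors, 5 and 8 for the nuclear receptors, 4 and 5 for the histone deacetylases and sirtuins, 3 and 3 for the Kruppel-like factors, 57 and 23 for the numbered Zfp zinc finger genes, 8 and 1 for the Polycomb, DNA methylation and HMG genes and 9 and 0 for the ETS factors.

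Pattern receptors and their signalling adaptors rose almost throughout. Toll-like receptor and NF-kB genes rose in 24 of 30 cases and fell in 2: Tlr13 rose 11.7-fold, Tlr8 4.29-fold and the endotoxin receptor Cd14 4.82-fold, while the inhibitor Nfkbia fell 1.68-fold. Of 18 measured C-type lectins (35 in the table) 11 rose and 2 fell. Clec4d stood at 197, 18.2, 196, 107 and 24.6 against at most 5.27 in sham, and Clec4n at 187 ± 133 against 13.4 ± 4.35. Clec4 genes lie side by side and are related in sequence, so reads may be shared. Fc receptors and immune adaptors rose in 13 of 14 cases with 0 falls; Trem2 rose 11.9-fold and Fcgr1 9.67-fold. Of 16 macrophage markers 15 rose with the summed counts given above, and their part in these families was not tested. Of 5 galectins 3 rose and 2 fell. Galectin 3 (Lgals3) rose from 23.1 ± 5.98 to 986 ± 694. Galectin 4 (Lgals4), known from gut epithelium, stood at 103, 247, 80.2, 95.0 and 184 against 429 to 844 (median 723) in sham (log2 fold change -2.38, SE 0.38, adjusted p = 7.4e-06), the opposite direction. Genes of caspases, gasdermins and necroptosis rose in 10 of 17 cases and fell in 1; Ripk3 rose 3.93-fold and Mlkl 2.38-fold. In the BCL2 family 6 of 17 genes were higher and 4 lower; the pore-formers Bak1 and Bax rose 2.46-fold and 1.66-fold and Bnip3 fell 1.48-fold.

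Protease control and clotting genes rose together. Serpins, protease inhibitors, rose in 13 of 16 measured cases (37 in the table) and fell in 1. Serpina3n stood at 4156, 608, 1273, 2046 and 1038 in the TAC libraries against 90.7 to 155 (median 122) in sham (log2 fold change 3.62, SE 0.41, adjusted p = 2.8e-08); the Serpina3 genes are a cluster of close copies. Serpinb1a, an inhibitor of neutrophil proteases, rose 20.2-fold. Of 19 coagulation and fibrinolysis genes 14 rose and 3 fell. Urokinase (Plau) rose 6.04-fold and its receptor (Plaur) 5.79-fold, whereas tissue factor (F3), thrombomodulin (Thbd) and the pathway inhibitor (Tfpi) fell 1.65-fold, 1.43-fold and 1.67-fold. Annexins, calcium-dependent membrane binders, rose in 8 of 9 cases and fell in 1. Anxa2, which holds plasminogen activator at the cell surface, stood at 3966, 1425, 3417, 3691 and 2771 against 599 to 739 (median 701) (log2 fold change 2.06, SE 0.26, adjusted p = 1.1e-07). Given the same total in each library, counts of higher and lower members were 26 and 1 for the Toll-like receptors and NF-kB genes, 12 and 1 for the C-type lectins, 14 and 0 for the caspase, gasdermin and necroptosis genes, 10 and 2 for the BCL2 family, 15 and 0 for the serpin protease inhibitors and 3 and 1 for the galectins.

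AP-1 binds TGACTCA, and its genes are among the first raised by load. The element, searched on both strands, stood in 6.68% of 1228 promoters of genes that rose by at least 2-fold, in 4.0% of 400 promoters of genes that fell by as much, and in 3.38% of 5704 promoters of genes that did not pass. The share over all tested promoters was 3.8%, and in the coagulation list it was 5 of 16. These 5 promoters are shown because this share stood far above that of all tested promoters, a list picked after the shares were seen, with the element in capitals along the gene's strand, from RefSeq in GRCm38.p6.
Plaur, chr7:24462403-24462431, plus strand: acccctggagcTGACTCActctttagcaa
Anxa2, chr9:69453577-69453605, plus strand: tccaagttggaTGAGTCAcccagcagggt
F2r, chr13:95618653-95618681, minus strand: ccccgaggggcTGAGTCActcccaggctt
Procr, chr2:155751052-155751080, plus strand: ccccaccccccTGACTCAgcggcgaccta
F3, chr3:121723391-121723419, plus strand: tgaatcacggtTGAGTCAcccctttcggg
In Anxa2, F2r and F3 the element lies on the opposite strand and reads TGAGTCA. Plaur, Anxa2, F2r and Procr rose (log2 fold changes 2.38, 2.06, 0.98 and 0.92) and F3 fell (-0.76), so the element stood beside changes of both signs. F2r and Procr were taken up for their promoters after values had been seen. CACGTG was less frequent among the genes that rose by 2-fold (7.33%) than among those not past the threshold (10.1%), and CCAAT stood in 35.8% and 37.1% of them. These shares carry no test.

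**Figure D4:**
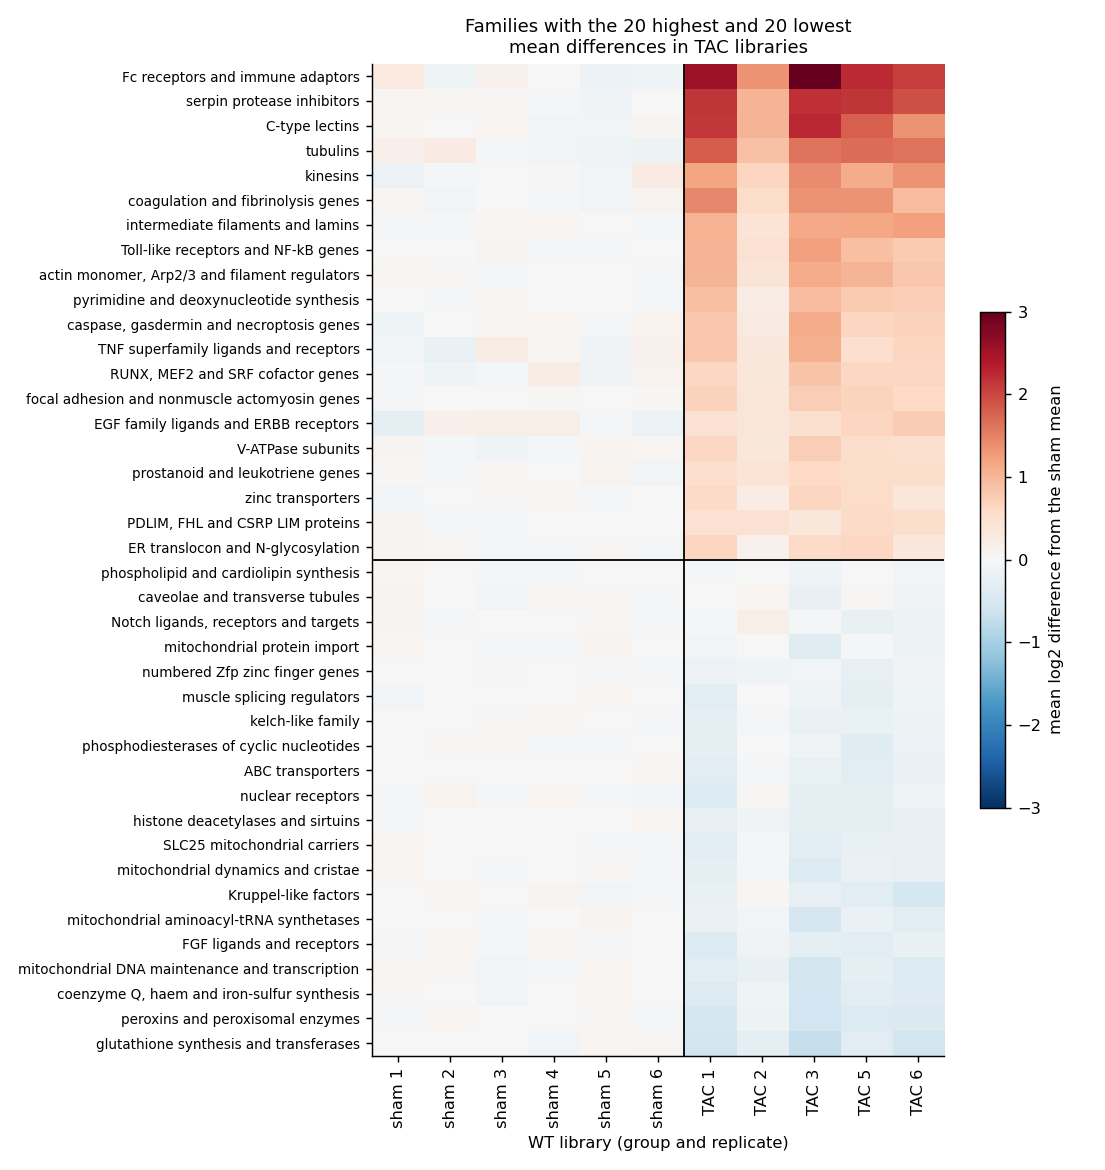
Mean log2 difference from the sham mean over the measured members of 40 gene families with at least 10 such members (rows) in each WT library (columns, 6 sham then 5 TAC); the colour scale is centred on 0. The rows are the families with the 20 highest and 20 lowest means over TAC libraries; the upper rows are above 0 in every TAC column, and TAC replicate 2 is the palest of these columns in most rows.

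The same families were compared over libraries. TAC replicate 2 was the nearest to sham in 64 of 86 families with at least 5 measured members. In the knockout groups, fitted against their own sham libraries, medians are set side by side for 5 families, chosen as examples and with no test of the difference: tubulins had medians of 1.61 in WT, 1.69 in IRS1KO and 1.79 in IRS2KO, peroxisomal genes -0.38, -0.50 and -0.52, cytosolic synthetases 0.17, 0.30 and 0.25, mitochondrial synthetases -0.27, -0.30 and -0.29, and the 6 measured water channels -0.62, -1.58 and -1.36. Of these 5 families, the water channels had the medians furthest apart, and the reason was not tested. The difference of the TAC response between WT and IRS1KO passed for 15 genes (0.11%), and between WT and IRS2KO for 0 (713 at an unadjusted p under 0.05, and 0 by edgeR and by DESeq2). Members of the families were among the first set, and 3 of them are named here after their values were seen. Clec7a, a receptor for fungal glucans, rose by 1.82 in WT and stood at -0.54 in IRS1KO (adjusted p of the difference = 0.0301). Ephb1 stood at -0.69 and -2.31, and Ets2 at 0.24 and -0.52 (adjusted p of the difference = 0.0301 for each). Within WT, the fall of Ephb1 had an adjusted p of 0.0158 (0.0628 without TAC replicate 5), and Ets2 did not pass (adjusted p = 0.0701, and 0.0325 without TAC replicate 3). The count of 15 became 2 to 17 when 1 WT library was left out, the lowest without sham replicate 2, and was 7 with the same total per library, 54 by DESeq2 and 192 with library weights.

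Markers of other cells give the setting of these values. Macrophage markers rose in 15 of 16 cases. Of neutrophil markers, Csf3r and S100a9 passed as higher. S100a9 stood at 128, 1.92, 18.0, 19.4 and 2.63 in TAC replicates 1, 2, 3, 5 and 6, against 0 to 6.78 (median 2.78) in sham. TAC replicates 2 and 6 thus lay within the sham range, and the gene could pass the filter through its TAC values alone. Its call was lost without TAC replicate 1 (adjusted p = 0.106, limma), with quantile normalisation (0.235) and in the WT libraries alone (0.0566). The other 10 of the 12 neutrophil markers in the table were below the filter. Platelet markers rose in 4 of 5 cases and fell in 0, with Pf4 up 4.79-fold, and rose in 2 without sham replicate 5, TAC replicate 1 or TAC replicate 5. Of 12 fibroblast markers 9 rose and 1 fell, Gsn being the one that fell. Endothelial markers fell in 6 of 12 cases and rose in 1 (Plvap, 2.99-fold; 2 rose with the same total per library), and lymphatic Prox1 and Reln fell 1.85-fold and 2.23-fold as Pdpn rose 5.84-fold. Ventricular cardiomyocyte markers fell in 10 of 12 cases and rose in 1; with the same total per library 6 fell and 2 rose. Of T and NK, B, mast and dendritic cells, markers were measured in 3, 3, 1 and 4 cases only. All 5 erythroid genes fell, Alas2 2.04-fold, as did 2 without TAC replicate 1 and 3 with the same total per library; their part in other falls was not tested.

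Outside the families, the largest falls were of genes known from muscle, liver-type metabolism and channels. Ces1d, a carboxylesterase, fell 8.21-fold, the sodium channel subunit Scn4b 5.22-fold, the potassium channel subunit Kcnv2 6.63-fold and the G protein subunit Gnb3 4.39-fold. Among the largest rises were Cthrc1, a secreted collagen-repeat protein, from 1.05 ± 0.908 to 374 ± 255, and the metalloprotease gene Adam12 from 5.25 ± 2.76 to 273 ± 136.

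**Figure D5:**
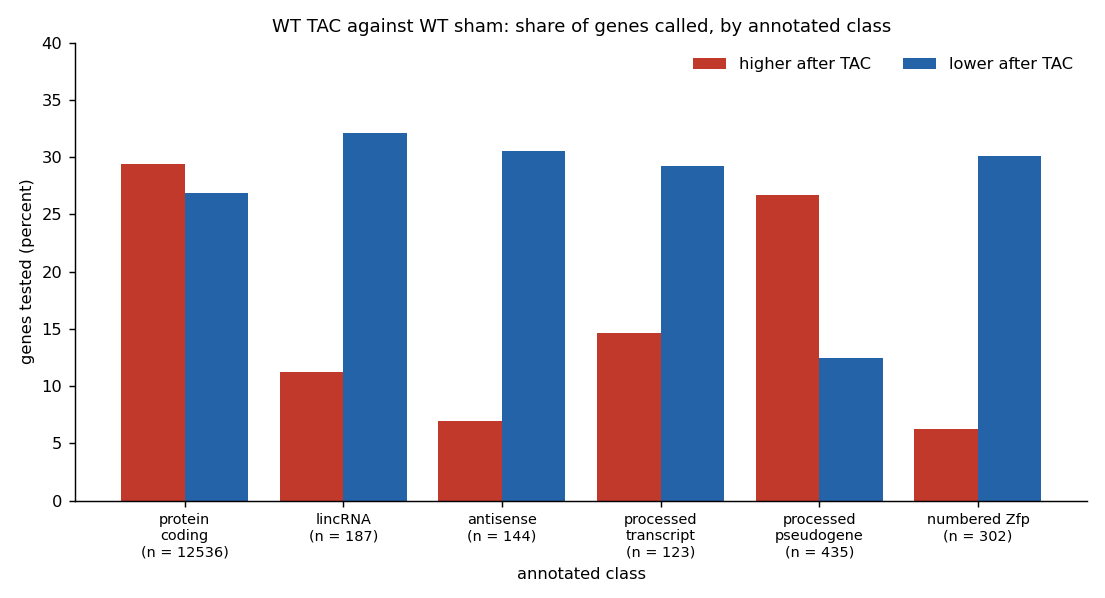
Share of tested genes (percent, vertical axis) higher and lower after TAC by annotated gene class; bars start at 0 and the number of genes tested is under each class. As deposited, protein-coding genes are balanced (29.4% higher, 26.8% lower) and lincRNA, antisense and Zfp genes lean lower.

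Classes of RNA also differed in balance. Protein-coding genes were higher in 29.4% and lower in 26.8% of 12536 cases, lincRNAs in 11.2% and 32.1% of 187, and antisense RNAs in 6.94% and 30.6% of 144. With the same total per library these shares were 47.3% and 11.5%, 16% and 18.7%, and 9.72% and 20.1%. LincRNAs and antisense RNAs thus leaned lower than protein-coding genes under both scalings, but the second shifts all genes by about the same step. With quantile normalisation, which does not, 25.6% of protein-coding genes were higher and 32.1% lower. The shares were then 6.95% and 53.5% for lincRNAs and 4.17% and 59% for antisense RNAs. The lean was the same, but its size depended strongly on the scaling. Processed pseudogenes, the largest other class, leaned the opposite way, higher in 26.7% and lower in 12.4% of 435 cases as deposited. The libraries mark strand, but no source used here gives the strand setting of the counting, so reads of an antisense gene and its partner may not have been told apart.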

How the data were processed

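RNA was extracted from the heart apex with mirVana and made into stranded TruSeq mRNA libraries, per the labels' protocols. The authors deposited 1 table whose values are a signal per gene, read counts over 1 factor per library; HISAT2 2.0.6, HTSeq 0.7.1, DESeq2 and GRCm38 stand in the submitters' processing notes, and neither an annotation version nor a strand setting does. Whole reads were recovered for 100% of the deposited values (tolerance 0.001). All 35 columns belonged to a labelled sample.

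Values were put on log2(value + 1), and 13695 genes with a mean of at least 10 over all libraries were fitted with limma 3.58.1 (R 4.3.3, trend and robust options), with a mean for each of the 6 groups, 2-sided p-values and Benjamini-Hochberg adjustment at 0.05. A fold is the ratio of group means of deposited values, given only where the sham mean was at least 3; log2 fold changes come from the fit and understate changes of low genes. Reads were also tested with edgeR 4.0.16 and DESeq2 1.42.0. Other alternatives were pseudocounts of 0.5 and 5, no filter or a mean of at least 50, 2 other scalings, the WT libraries alone, library weights, a replicate block and each WT library left out. Counts were also simulated with 200 of 13695 genes changed in WT TAC and a spread that was assumed, not estimated from the libraries. On these, limma recovered 81% of the 2-fold and 21% of the 1.5-fold changes, with 3 false among 105 calls. Far more genes were called in the real data, which eases the adjusted threshold, so these shares need not hold there. Pairs of libraries within a WT group differed beyond sampling noise (chi-square per degree of freedom at least 3.20 over 25 pairs).

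Gene types and positions came from GENCODE vM21, which held 99.5% of the gene IDs, and promoters from RefSeq (GRCm38.p6), matched by symbol for 10174 tested genes. The 96 families and cell type lists (2544 members in the table, 2031 measured) and the comparison itself were chosen with earlier results of these data known. Genes named are, in each list, up to 4 that rose and 4 that fell by size (group mean of 50 or more on one side), the highest gene that did not pass, and every member of lists with 8 or fewer measured; outside the lists, the 15 largest changes each way at a group mean of 100 or more. The rule takes 671 genes, of which some are described. Some results, among them 1 gene family and 1 promoter match, are not reported here.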

Additional observations from a re-analysis of the deposited data

Results flagged for a closer look

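In 15 of 488 groups (the sham or the TAC libraries of a named gene), 1 library stood apart from the rest by Dixon's test; chance alone gives about 1 in 20. TAC replicate 2 was that library in 9 of them. It was high for Fhl2 (24618.5 normalised counts against 11930.9 to 15504 in the other TAC libraries), Kif13a (1905 against 1323 to 1428), Gpt (400.3 against 171 to 229), Gpt2 (358 against 216 to 233), Abcc9 (4103 against 2162 to 2510.2) and Car14 (1969.6 against 616 to 838). It was low for Tubb2b (105 against 290.1 to 347), Slc39a13 (339 against 630.4 to 683) and Tgfb2 (271 against 747 to 925). In all 9 genes its value lay between those of the other TAC libraries and the sham mean or beyond the sham mean.

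Of the other TAC libraries, replicate 3 was high for Egfr (216 against 158 to 173) and replicate 1 for S100a9 (128 against 1.92 to 19.4). Among sham libraries, replicate 1 was high for Cyp26b1 (177 against 77.5 to 91.8) and replicate 3 for Slc36a2 (305 against 244 to 261). Sham replicate 6 was high for Thrb (387 against 276 to 312) and low for Tfpi (661 against 983 to 1086).

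The TAC response differed between WT and IRS1KO in a test of the difference itself for Clec7a (WT minus IRS1KO 2.36 on the log2 scale), Ephb1 (1.62) and Ets2 (0.77), the genes named from the 15 that passed (limma); no explanation was tested.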

How the results depend on the processing

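The counts of 3877 genes higher and 3638 lower after TAC stayed within 1.5 times under every alternative but 1: with the same total per library they were 6221 and 1583, since this scaling moves all genes up by about the same step. With each WT library left out in turn they ran from 3460 to 4066 and from 3109 to 3870. On recovered reads edgeR called 3953 and 3507 and DESeq2 3925 and 3587. Quantile normalisation gave 3319 and 4512, so the share of calls that were higher was 51.6% as deposited, 79.7% with the same total and 42.4% with quantile normalisation. The main fit takes sham and TAC libraries as unpaired, and a check of pairing by replicate number did not settle the matter. Same-numbered libraries correlated in their deviations at 0.0538 to 0.209 over 5 pairs, all above 0, and the own number was the best match in 2. With the replicate number as a block, 3893 genes were higher, 3769 lower, 17 differed between WT and IRS1KO and 0 between WT and IRS2KO. The 15 genes whose response differed from IRS1KO became 7 with the same total, 192 with library weights and 54 with DESeq2, and 2 to 17 with 1 WT library left out (2 without sham replicate 2, 3 without TAC replicate 1, 4, 5, 6 and 7 without sham replicates 4, 3, 1 and 5). For WT against IRS2KO the count was 0 under every alternative run. Fitting the WT libraries alone gives no such difference. Of 244 named genes, 238 passed and 235 of these passed under every alternative that kept them. Named genes were mostly picked for passing with large changes, so this steadiness does not speak for genes at large. Iars alone changed sign, to 0.21 (adjusted p = 0.093, limma) with the same total. Of 190 family counts, 88 moved by over 1.5 times with the same total, 26 with quantile normalisation, 25 with a mean of at least 50 and 15 with no filter; 23 medians changed sign with the same total and 7 with quantile normalisation. The causes were not tested. On simulated counts with an assumed spread and few changed genes, 21% of 1.5-fold changes were recovered, a share that need not hold for the real data. A change of that size that did not pass is not shown to be absent.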
